A study of Drosophila melanogaster with 12 samples.

Results

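The 4 new glue genes ng1, ng2, ng3 and ng4 were followed across poly(A) RNA sequencing of dissected Drosophila melanogaster larval salivary glands (SGs). All 4 were found among the 13825 genes to which the deposited transcripts were assigned, and all 4 passed the filter on low counts that left 9012 genes for testing. The genes were chosen by name, but with earlier results of these data known. The highest levels of all 4 were found in the lglRNAi;RasV12-PP libraries. After TMM scaling of the counts, ng1, ng2 and ng3 were there 2.33-fold to 3.62-fold above w1118 entire glands. ng4 was 5.89-fold above, but had only 6 to 11 counts in each w1118 library. Sgs4, the nearest glue gene, was 8.10-fold below w1118 in the lglRNAi;RasV12-PP libraries.

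The data comprised 12 libraries in 4 groups with 3 replicates each, all dissected at 96 hr after egg deposition (AED). The lglRNAi;RasV12-PP group held a dissected part of glands that coexpressed RasV12, a dominant-active form of Ras, with RNAi against the polarity gene l(2)gl. The lglRNAi;RasV12 group held entire glands of that cross, the RasV12 group entire glands with RasV12 alone, and the w1118 group entire control glands. All 4 groups carried the w1118 background and the BxGal4 driver, which is active in the secretory epithelium of the gland, and larvae were fed on food with antibiotics. The sample labels place the Drs-GFP reporter in every group, whereas the list of crosses published with the study names it for the lglRNAi;RasV12 cross and not for the RNA-seq crosses of RasV12 and w1118. A difference in the reporter therefore cannot be told apart from the other differences in genotype. The PP is named the proximal part, the part next to the duct, by the study's methods, whereas the sample labels call it posterior. Each replicate pooled many pairs of glands or PPs. Entire lglRNAi;RasV12 glands also include the PP, and a PP of w1118 or RasV12 glands was not analysed here. Genotype and position along the gland therefore cannot be told apart when the PP is set against w1118 or RasV12 glands.

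New glue genes encode small proteins of the larval salivary gland and belong to the pre-intermolt genes. These genes are known for transcription in the gland earlier in the third larval instar than the peak of the Sgs glue genes, whose products fix the pupa to its substrate. Both gene classes respond to the steroid hormone ecdysone, and ng1 and ng2 are close copies of each other.

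The libraries held between 27584224 and 73043536 estimated counts, with lglRNAi;RasV12-PP replicate 2 the deepest. A floor of 3 counts equalled 0.0411 to 0.109 CPM, that is counts scaled to a common library size, and all ng values lay above it. Ras85D, the gene from which the RasV12 transgene derives, was 5.39 (PP), 5.19 (lglRNAi;RasV12) and 5.61 (RasV12) higher than in w1118 glands on the log2 scale, without overlap. l(2)gl ranged between 208 and 282 CPM in the PP, 148 and 191 CPM in lglRNAi;RasV12, 244 and 286 CPM in RasV12 and 140 and 189 CPM in w1118 glands. l(2)gl, the RNAi target, was thus at a log2 fold change of -0.66 in lglRNAi;RasV12 against RasV12 glands (edgeR adjusted p = 0.0132), but at -0.12 in the PP against RasV12 glands, and it was not below w1118 in either group with the RNAi. All 11 salivary gland markers examined were detected. Against w1118 glands, 8 of the 11 were called lower in the PP by the limits given below (11.3% of all genes were). Only 1 was called higher (15.7% of all genes), and the median log2 fold change of the 11 was -1.90. The gland transcription factor fkh, at 333 CPM in the PP and 247 CPM in w1118 glands, was not called. The replicates are separate dissections according to the study's methods.

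The 4 genes lie in a cluster of 4195 bases on the X chromosome of the dm6 genome. In the order of their coordinates, ng2 occupies chrX:3240026-3240571, ng3 chrX:3241491-3242084, ng1 chrX:3242412-3242934 and ng4 chrX:3243954-3244220. ng1 is read from the plus strand and the other 3 genes from the minus strand. Each is annotated with 1 transcript of 1 exon, with 523 bases in ng1, 546 bases in ng2, 594 bases in ng3 and 267 bases in ng4. Their coding lengths are 321, 336, 438 and 171 bases, in the same order. The distance between ng3 and ng1 is 327 bases, and these genes point away from each other. The cluster lies in an intron of 4 of the 17 transcripts of dnc, which encodes a cAMP phosphodiesterase, and overlaps none of its exons. Within 20000 bases, CG14265 (chrX:3236130-3236686), the pre-intermolt gene Pig1 (chrX:3248600-3249289) and the glue gene Sgs4 (chrX:3250089-3251040) were also quantified.

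Levels are given as CPM after TMM scaling when libraries are compared for 1 gene, and as TPM, the transcript abundance corrected for length, when genes are compared within a library. ng1 was measured at 3053, 3483 and 2859 CPM in the PP, 559, 698 and 673 CPM in lglRNAi;RasV12, 564, 662 and 758 CPM in RasV12 and 772, 902 and 1243 CPM in w1118 glands. Every PP library was above every library of entire glands, and on this scale all lglRNAi;RasV12 and RasV12 libraries were below all w1118 libraries, which was also the case downwards for 27.1% (lglRNAi;RasV12) and 27.2% (RasV12) of all genes. The group means were 3132 ± 319 (PP), 643 ± 74.1 (lglRNAi;RasV12), 661 ± 96.9 (RasV12) and 972 ± 243 CPM (w1118; SD, n = 3 each).

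ng2, the close copy of ng1, was measured at 3741, 3655 and 3543 CPM in the PP, 836, 1021 and 1026 CPM in lglRNAi;RasV12, 714, 795 and 1303 CPM in RasV12 and 753, 943 and 1327 CPM in w1118 glands. Here too the PP stood apart, but the 3 groups of entire glands overlapped each other. The RasV12 group was drawn apart by replicate 3. Group means were 3646 ± 98.9, 961 ± 109, 937 ± 319 and 1008 ± 292 CPM in the PP, lglRNAi;RasV12, RasV12 and w1118 libraries (SD, n = 3 each).

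ng3 was the most abundant of the new glue genes in all 12 libraries. Its levels were 8441, 8890 and 7847 CPM in the PP, 2394, 2688 and 2594 CPM in lglRNAi;RasV12, 2179, 2043 and 2966 CPM in RasV12 and 3010, 3448 and 4328 CPM in w1118 glands. As for ng1, the PP was above and both RasV12-expressing groups of entire glands were below the whole range of w1118 in CPM. Group means were 8393 ± 524, 2558 ± 150, 2396 ± 499 and 3596 ± 671 CPM in the PP, lglRNAi;RasV12, RasV12 and w1118 libraries (SD, n = 3 each).

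ng4 was detected in every library, but by only 6 to 140 counts, compared with 62775 to 671171 counts for ng3. It was measured at 2.49, 1.85 and 1.96 CPM in the PP, 0.254, 0.698 and 0.654 CPM in lglRNAi;RasV12, 0.293, 0.389 and 0.465 CPM in RasV12 and 0.288, 0.374 and 0.392 CPM in w1118 glands. The PP libraries were again above all others, and the 3 groups of entire glands overlapped. Since the library kit does not mark strand, reads of ng4 and of unspliced dnc RNA from the opposite strand cannot be told apart. dnc itself averaged 48.6 (PP), 29.0 (lglRNAi;RasV12), 20.1 (RasV12) and 42.9 CPM (w1118).

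**Figure D1:**
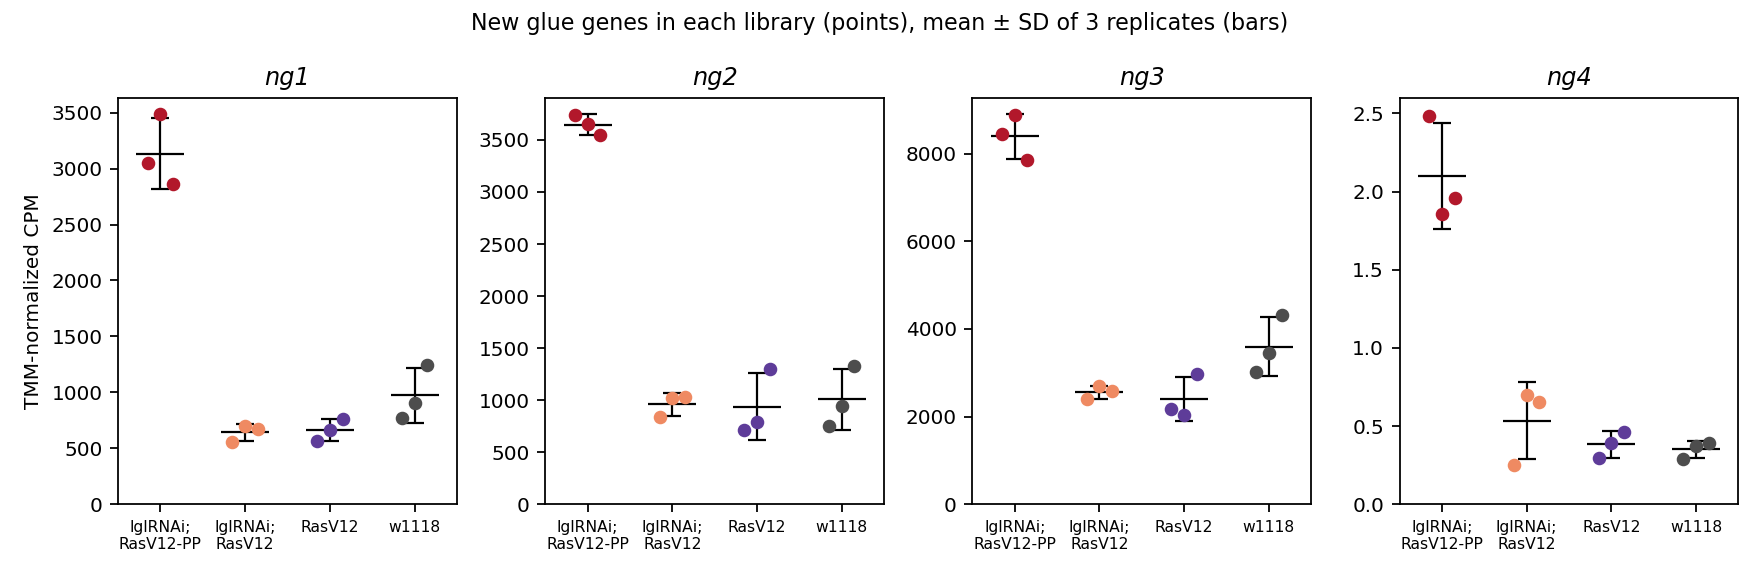
TMM-normalized CPM of ng1, ng2, ng3 and ng4 in each of the 12 libraries (points), with the mean and SD of the 3 replicates of each group (bars), each panel with its own vertical axis from 0. The lglRNAi;RasV12-PP libraries sit above all entire glands in all 4 panels, between 2859 and 3483 CPM for ng1 and between 1.85 and 2.49 CPM for ng4.

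Corrected for transcript length, the order of the genes was ng3 above ng1 and ng2, and both far above ng4. In the PP, ng3 reached 21190 ± 467 TPM, ng2 10640 ± 773 TPM, ng1 9806 ± 247 TPM and ng4 27.1 ± 5.42 TPM (SD, n = 3). In w1118 glands the levels were 5995 ± 1568 TPM for ng3, 1998 ± 637 TPM for ng1, 1933 ± 689 TPM for ng2 and 2.93 ± 0.742 TPM for ng4. The ranges of ng1 and ng2 overlapped in both groups. ng3 ranked 6 to 7 among all genes by TPM in the PP libraries, 14 in lglRNAi;RasV12, 14 to 17 in RasV12 and 13 to 18 in w1118 libraries. ng4 ranked between 2081 and 2674 in the PP and between 5548 and 5996 in w1118 libraries.

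The 4 genes together made up 4.06 to 4.28% of all TPM in the PP, 1.18 to 1.32% in lglRNAi;RasV12, 0.970 to 1.49% in RasV12 and 0.693 to 1.27% in w1118 glands. Thus, the new glue genes held a larger part of the transcripts in each PP library than in any library of entire glands. ng3 contributed 50.5 to 51.0% of this sum in the PP and 58.6 to 62.4% in w1118 glands.

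The estimates of ng1 and ng2 depend on how reads common to both were divided. In the 9 libraries with fewer than 100000 counts for each, ng1 was not a whole number in 7, and in the same number of libraries ng2 was not, whereas their sum was whole (within 0.001) in all 9. Counts of ng3 were whole in all 6 libraries below that limit, and those of ng4 in all 12 libraries. Values of ng1 and ng2 taken singly are therefore less certain than their sum. For the sum, the PP was 1.78 above w1118 glands on the log2 scale.

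To ask whether the PP differed from entire glands, edgeR's quasi-likelihood test was run on all 9012 genes together and p-values were adjusted after Benjamini and Hochberg. A gene was called where its log2 fold change was 1 or more in either direction and its adjusted p did not exceed 0.05. Against w1118 glands, all 4 new glue genes were called higher in the PP, compared with 15.7% of all genes tested. With the TMM scaling 1413 genes were called higher and 1017 lower, and with scaling to library size alone 2515 higher and 631 lower, in which all 4 genes were again called higher. On the log2(TPM + 0.1) scale the differences were larger, at 2.35 for ng1, 2.52 for ng2, 1.86 for ng3 and 3.18 for ng4 (limma, all called), with the median of all genes at 0.60 and 2595 genes called higher and 513 lower. With TMM, the log2 fold changes were 1.69 (SE 0.18) for ng1, 1.86 (SE 0.24) for ng2, 1.22 (SE 0.16) for ng3 and 2.56 (SE 0.39) for ng4. Adjusted p in edgeR were 8.84e-06 for ng1, 4.11e-05 for ng2, 4.26e-05 for ng3 and 0.000165 for ng4. No PP library overlapped with w1118 for any of them, which was also the case upwards for 36.8% of all genes. Ordered by log2 fold change among all tested genes, ng4 stood at rank 426, ng2 at 720, ng1 at 820 and ng3 at 1248. The median log2 fold change of the 4 genes was 1.77, compared with 0.10 over all genes.

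The PP and entire glands of the same genotype were compared next, which leaves position along the gland as the labelled difference. All 4 genes were called higher in the PP, compared with 8.21% of all genes. ng1 differed most (log2 fold change 2.28, SE 0.18), followed by ng4 (1.99, SE 0.37), ng2 (1.92, SE 0.24) and ng3 (1.71, SE 0.16). Adjusted p in edgeR were 6.68e-06 for ng1, 0.00164 for ng4, 0.000131 for ng2 and 1.94e-05 for ng3. ng1 had the 54th and ng3 the 109th smallest p of all genes in this comparison. For none of them did the groups overlap, which was also the case upwards for 27.1% of all genes. The 95% intervals of all 4 fold changes overlapped each other. The median of the 4 genes was 1.96, and that of all genes 0.0049.

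Against RasV12 glands, all 4 genes were called higher in the PP as well (8.7% of all genes tested were), without overlap (27.7% of all genes). The log2 fold changes were 2.24 for ng1, 1.96 for ng2, 1.81 for ng3 and 2.44 for ng4, with adjusted p in edgeR between 4.52e-06 and 0.000496. The 3 comparisons of the PP share its libraries and are not independent of each other.

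Entire glands differed less. In RasV12 compared with w1118 glands, none of the 4 genes was called in either direction, compared with 20.3% of all genes. In edgeR, ng1 was at a log2 fold change of -0.56 (SE 0.17, adjusted p = 0.0189) and ng3 at -0.59 (SE 0.16, adjusted p = 0.00842), both short of the required size. ng2 was at -0.10 (95% interval -0.61 to 0.40) and ng4 at 0.11 (95% interval -0.79 to 1.02). An adjusted p of at most 0.05, the limit for a call, at a negative fold change of any size was found for 23.1% of all genes. These directions depend on the scaling. When TPM were compared instead, ng1 was at 0.18, ng2 at 0.60 and ng3 at 0.12 (limma, log2(TPM + 0.1)), with the median of all genes at 0.63 and the calls over all genes at 2426 higher and 201 lower, in place of 1020 and 810.

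In lglRNAi;RasV12 compared with w1118 glands, no new glue gene was called either, compared with 19.9% of all genes. Values were similar to those of RasV12 glands, with log2 fold changes of -0.60 for ng1 (SE 0.17, edgeR adjusted p = 0.0127) and -0.49 for ng3 (SE 0.16, edgeR adjusted p = 0.0199). An adjusted p of at most 0.05 at a negative fold change of any size was found for 23.5% of all genes. ng2 was at -0.07 (95% interval -0.57 to 0.44) and ng4 at 0.57 (95% interval -0.31 to 1.46). On the log2(TPM + 0.1) scale ng1, ng2 and ng3 were at 0.21, 0.74 and 0.30, the median of all genes was 0.71, and ng4 was called at 1.08 (limma adjusted p = 0.0134). Calls over all genes were then 2899 higher and 197 lower, in place of 1088 and 709.

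Addition of l(2)gl RNAi to RasV12 gave no call for a new glue gene in entire glands, where 3.32% of all genes were called. The log2 fold changes of lglRNAi;RasV12 against RasV12 glands were -0.04 for ng1, 0.04 for ng2, 0.09 for ng3 and 0.46 for ng4, and the libraries of both groups overlapped for each of them. The 95% intervals reached from -0.42 to 0.34 for ng1, from -0.47 to 0.54 for ng2, from -0.25 to 0.43 for ng3 and from -0.39 to 1.30 for ng4. For ng4, a difference of more than the required size in the upward direction lies within this interval.

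**Figure D2:**
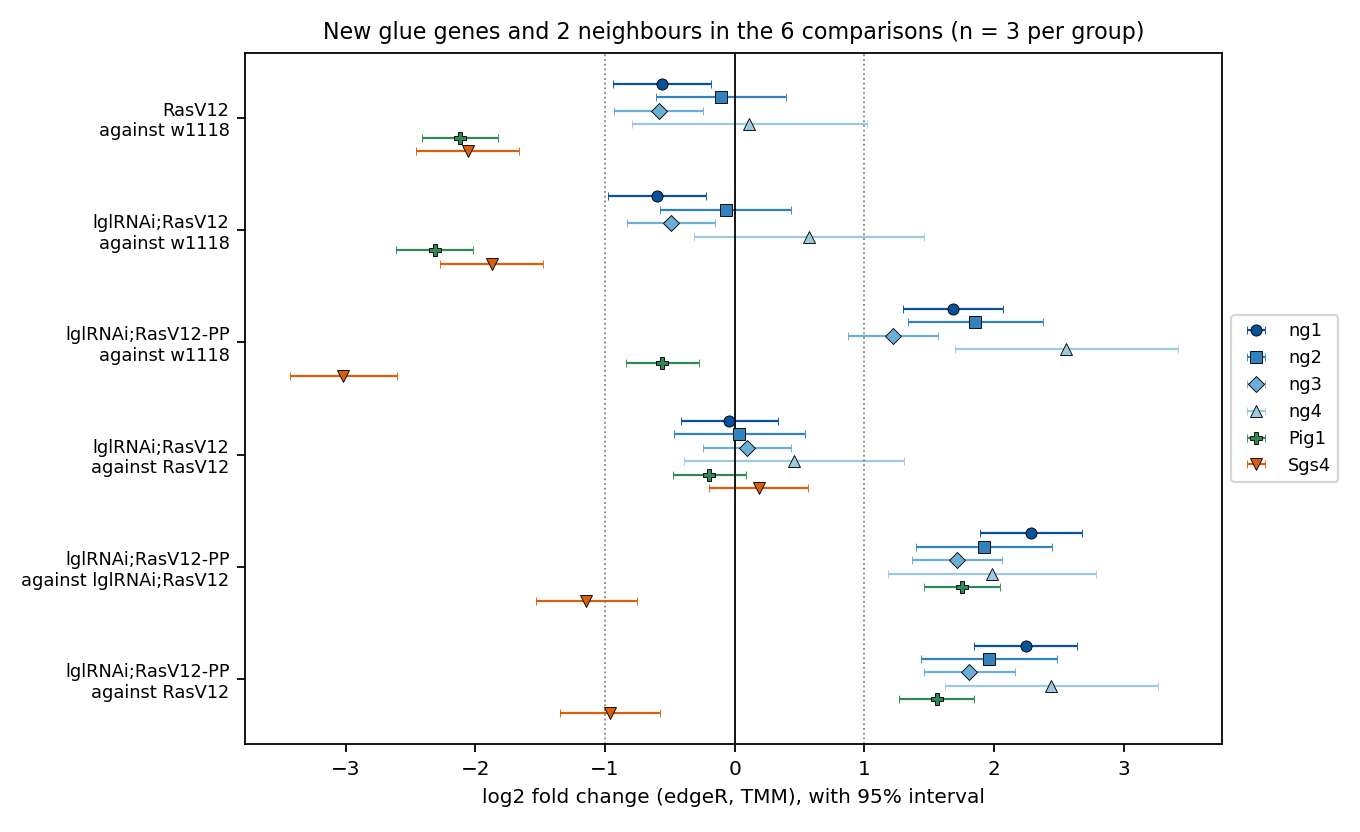
Log2 fold changes (edgeR, TMM scaling) with 95% intervals for the 4 new glue genes and their neighbours Pig1 and Sgs4 in the 6 comparisons, with n = 3 libraries per group and dotted lines at -1 and 1. All 4 new glue genes lie above 1 in the 3 comparisons of lglRNAi;RasV12-PP, between 1.22 and 2.56, and within the dotted lines in the other 3.

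The neighbours of the cluster did not share 1 pattern. CG14265, which flanks ng2, was measured at 2368, 4460 and 3763 CPM in the PP and 712, 596 and 845 CPM in w1118 glands. It was called higher in the PP against w1118 (log2 fold change 2.30, SE 0.22), lglRNAi;RasV12 (2.13) and RasV12 glands (2.53), and in none of the comparisons of entire glands. No role is stated for CG14265 in the annotation used.

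Pig1, the other pre-intermolt gene of the region, was measured at 800, 646 and 764 CPM in the PP, 188, 236 and 231 CPM in lglRNAi;RasV12, 218, 251 and 280 CPM in RasV12 and 1116, 972 and 1163 CPM in w1118 glands. Its PP level was between that of w1118 and that of both other groups, with no overlap. Pig1 was called lower in RasV12 (log2 fold change -2.12, SE 0.13) and in lglRNAi;RasV12 glands (-2.31, SE 0.14) against w1118. In the PP it was called higher against lglRNAi;RasV12 (1.76, SE 0.13) and RasV12 glands (1.56, SE 0.13). Against w1118 it was at -0.56 (SE 0.13, edgeR adjusted p = 0.00295), short of the required size and on the other side of 0 from the 4 ng genes. In TPM, however, Pig1 was at 1188 to 1646 in the PP and 1280 to 1590 in w1118 glands, with overlap.

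Sgs4, which encodes a glue protein and starts on the far side of Pig1, was measured at 4230, 5153 and 5396 CPM in the PP and 50700, 33410 and 35600 CPM in w1118 glands. It was called lower than in w1118 in the PP (log2 fold change -3.02), in lglRNAi;RasV12 (-1.87) and in RasV12 glands (-2.06), and lower in the PP than in lglRNAi;RasV12 glands (-1.14). dnc, the gene around the cluster, was called higher in the PP only against RasV12 glands (1.28) and lower in RasV12 than in w1118 glands (-1.09). Against w1118, dnc was at 0.18 in the PP (95% interval -0.17 to 0.53).

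**Figure D3:**
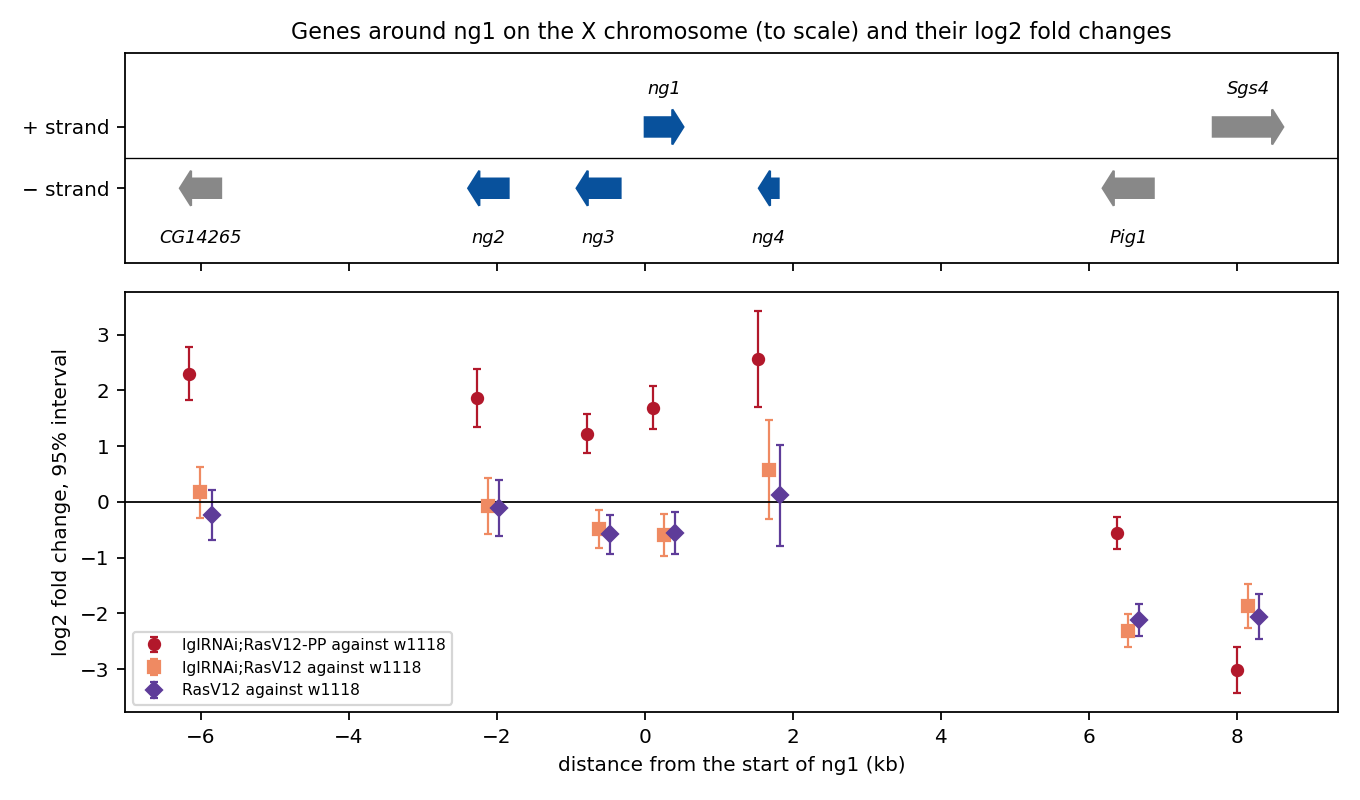
Upper panel, the 4 new glue genes (blue) and their quantified neighbours (grey) drawn to scale by distance in kb from the start of ng1, with arrows along the direction of transcription. Lower panel, log2 fold change with 95% interval against w1118 at the position of each gene (the 3 symbols are set slightly apart), where lglRNAi;RasV12-PP is at 1.22 or above for CG14265 and the ng genes, at -0.56 (TMM scaling) for Pig1 and at -3.02 for Sgs4.

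The glue genes as a group gave a contrast to the new glue genes. Of the 8 glue genes, all were called lower in the PP than in w1118 glands (11.3% of all genes were), with a median log2 fold change of -2.95. In lglRNAi;RasV12 glands 7 of 8 were called lower than in w1118 (7.87% of all genes were), with a median of -1.77, and in RasV12 glands 7 of 8 as well (8.99% of all genes), with a median of -2.01. Sgs3 had the highest CPM of them, although Sgs7 had the higher mean TPM in each of the 4 groups. It was at -2.88, -1.67 and -1.97 in the PP, lglRNAi;RasV12 and RasV12 glands against w1118. Their summed level was 102000 to 120200 TPM in the PP, 240300 to 256000 TPM in lglRNAi;RasV12, 250400 to 292600 TPM in RasV12 and 417300 to 553800 TPM in w1118 glands. Per transcript of new glue genes, 2.52 to 2.88 glue gene transcripts were present in the PP, 18.8 to 20.4 in lglRNAi;RasV12, 16.8 to 30.3 in RasV12 and 35.9 to 80.0 in w1118 glands. The highest of these ratios came from w1118 replicate 1, which had the lowest ng sum and the highest glue sum of its group.

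**Figure D4:**
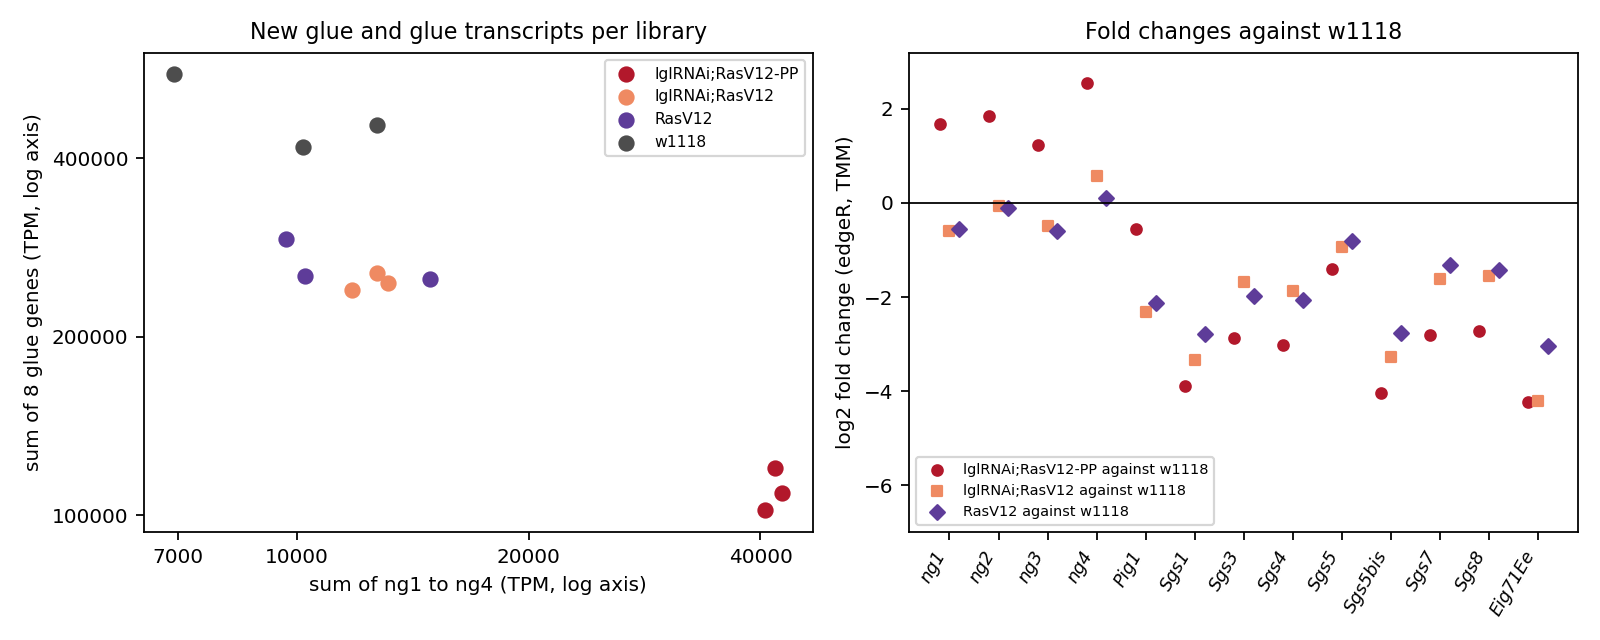
Left, the summed TPM of the 8 glue genes against the summed TPM of ng1 to ng4 in each library, both on log axes. Right, log2 fold changes against w1118 of the new glue genes, Pig1 and each glue gene, where the lglRNAi;RasV12-PP values (circles) are above 0 for the ng genes and, with this TMM scaling, below 0 for Pig1 and all glue genes. The PP libraries hold the highest ng sums (40520 to 42710 TPM) and the lowest glue sums.

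Whether genes of the cluster changed in proportion was examined by ratios of TPM within each library. 4 ratios in 6 comparisons gave 24 tests, and an exact two-sided permutation test of 3 against 3 libraries cannot give a p below 0.1. The tests at this limit had an adjusted p of 0.141 (Benjamini and Hochberg, over the 24 tests). ng3 over ng1 was 2.06 to 2.23 in the PP and 2.82 to 3.18 in w1118 glands, without overlap (log2 difference -0.49, exact p = 0.1). It was also lower in the PP than in lglRNAi;RasV12 (3.13 to 3.47) and RasV12 glands (2.50 to 3.16). ng3 over ng1 was thus lower in every PP library than in any library of entire glands. A test that cannot give a p below 0.1 does not settle whether ng3 and ng1 differed from w1118 unequally. This ratio also depends on how reads were divided between ng1 and ng2.

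ng2 over ng1 was 1.36 to 1.42 in lglRNAi;RasV12, 1.12 to 1.60 in RasV12 and 0.909 to 0.992 in w1118 glands. Both RasV12-expressing groups of entire glands were thus above all w1118 libraries, by 0.54 in lglRNAi;RasV12 and 0.42 in RasV12 glands on the log2 scale (exact p = 0.1 each). In the PP the ratio was 0.974 to 1.15 and overlapped with w1118. Since some reads of both genes were divided by estimation, this ratio carries that uncertainty.

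Pig1 over ng1 was 0.118 to 0.168 in the PP, 0.217 to 0.221 in lglRNAi;RasV12, 0.237 to 0.248 in RasV12 and 0.604 to 0.941 in w1118 glands. No pair of groups overlapped, and each of the 6 exact tests gave p = 0.1. Sgs4 over ng3 was 0.253 to 0.335 in the PP, compared with 4.20 to 8.69 in w1118 glands. Hence, more ng3 than Sgs4 transcripts were present in the PP, and the reverse was found in all libraries of the other 3 groups.

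**Figure D5:**
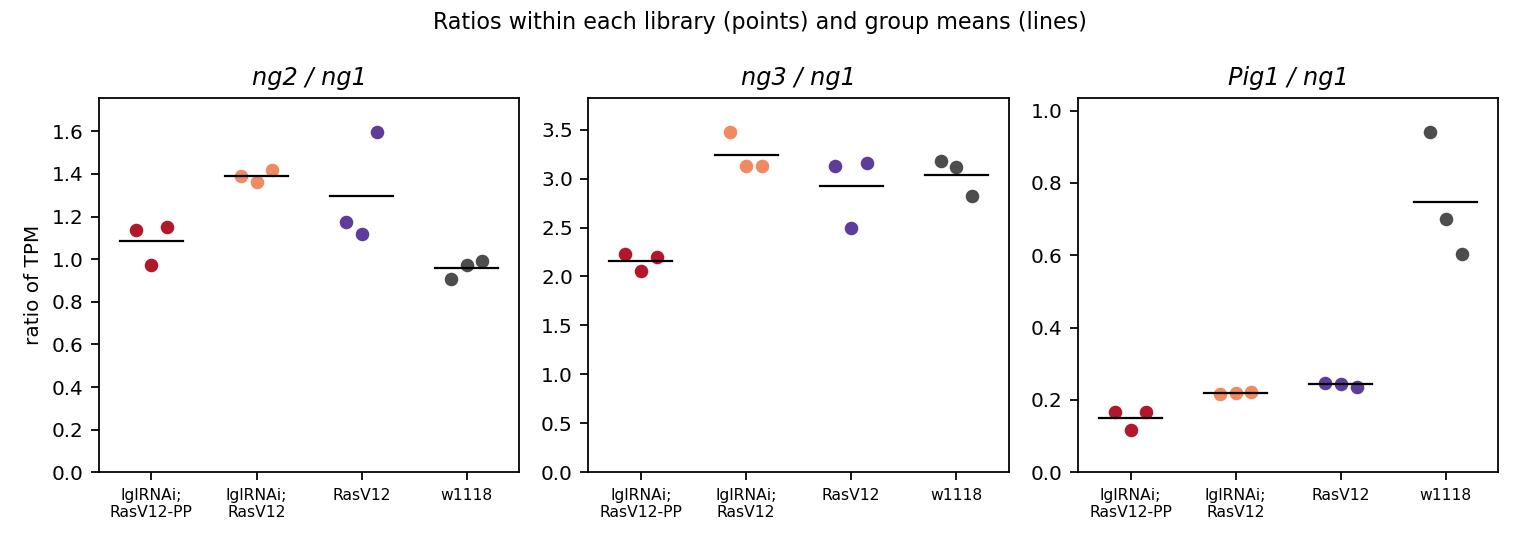
Ratios of TPM within each library (points) and group means (lines) for ng2 over ng1, ng3 over ng1 and Pig1 over ng1, with vertical axes from 0. ng3 over ng1 is lowest in lglRNAi;RasV12-PP (2.06 to 2.23), ng2 over ng1 is lowest in w1118 apart from 1 PP library at 0.974, and Pig1 over ng1 is highest in w1118 (0.604 to 0.941).

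Genes that act in the ecdysone response, the hormone response of the third instar, were taken as a list of 16. In the PP against w1118, 3 were called higher (15.7% of all genes were) and 1 lower (11.3% of all genes), with a list median of 0.26. Eip78C, a nuclear receptor gene, was called higher with 4.73, 19.7 and 6.49 CPM in the PP and 0.288, 0.170 and 0.174 CPM in w1118 glands. The others were Hr3 and Eip93F, whose means were below 1 CPM in every group and which had libraries without a count in w1118. Neither would have passed the filter without the PP libraries, so their calls as higher are not support. Eip74EF, an early ecdysone response gene, was called lower in the PP at 170 CPM compared with 385 CPM in w1118 glands (log2 fold change -1.18). These genes, except Eip74EF, were named after their values were seen.

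The most abundant gene of the ecdysone list was br, which encodes the Broad transcription factors. It averaged 441 CPM in the PP, 644 CPM in lglRNAi;RasV12, 995 CPM in RasV12 and 705 CPM in w1118 glands, and was called lower in the PP against RasV12 glands only (log2 fold change -1.17). In RasV12 against w1118 glands, 1 of the 16 genes was called higher (11.3% of all genes) and 1 lower (8.99%), and in lglRNAi;RasV12 against w1118, 3 were called higher (12.1%) and 1 lower (7.87%). The PP against lglRNAi;RasV12 glands gave 3 higher (8.21%) and 0 lower (6.24%), and against RasV12 glands 2 higher (8.7%) and 1 lower (5.44%). In lglRNAi;RasV12 against RasV12 glands 1 was higher (2.02%). EcR, the ecdysone receptor gene, was called in none of the 6 comparisons, with log2 fold changes between -0.56 and 0.39.

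Of 6 transcription factor genes of the gland, 2 were called lower in the PP than in w1118 glands, where 11.3% of all genes were. These were sage (log2 fold change -1.90), a salivary gland regulator, and CrebA (-1.36), a regulator of secretory genes. sage was also called lower in lglRNAi;RasV12 (-1.11, 7.87% of all genes) and RasV12 glands (-1.26, 8.99% of all genes), and hth in RasV12 glands (-1.22). fkh, required for gland identity, was at 0.43 in the PP against w1118 and was not called. In the PP against lglRNAi;RasV12 glands CrebA alone was called, as lower (6.24% of all genes were). In the PP against RasV12 glands 0 were called (8.7% of all genes were higher and 5.44% lower). Of the 10 prepupal L71 genes, which follow the glue genes in time, only 4 passed the filter. All 4 were called lower than in w1118 in the PP (11.3% of all genes) and in lglRNAi;RasV12 glands (7.87%). In RasV12 glands 3 of them were (8.99%). Eig71Eg had 17 to 41 counts in w1118 libraries, 2 in each RasV12 library and 0 in all other libraries. It passed the filter through w1118 alone, so its calls as lower are not support. Eig71Ec had only 1 to 15 counts in each library. It would not have passed the filter without the w1118 libraries, so its calls as lower are not support either.

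RNA of adjoining tissues differed between the groups as well. The summed level of 6 fat body markers was 7681 to 8889 CPM in the PP, 25150 to 33570 CPM in lglRNAi;RasV12, 16860 to 26120 CPM in RasV12 and 40360 to 84940 CPM in w1118 glands, and all 6 were called lower in the PP than in w1118 (11.3% of all genes were). The sum of 5 markers of trachea and duct was 93.7 to 106 CPM in the PP, 42.4 to 54.1 CPM in lglRNAi;RasV12, 43.2 to 52.0 CPM in RasV12 and 64.8 to 92.0 CPM in w1118 glands. Of these, 3 (trh, verm and serp) were called higher in the PP against lglRNAi;RasV12 (8.21% of all genes) and against RasV12 glands (8.7%), and 0 against w1118 (15.7%). eyg, which made up most of the sum at 65.7 to 77.2 CPM in the PP, was called in none of them. Its levels were nevertheless lower in entire glands, at 34.1 to 40.65 CPM in lglRNAi;RasV12, 34.0 to 41.1 CPM in RasV12 and 45.3 to 63.9 CPM in w1118. Sums of 8 hemocyte markers were 39.8 to 71.5 CPM in the PP, 25.8 to 71.9 CPM in lglRNAi;RasV12, 25.0 to 29.8 CPM in RasV12 and 48.0 to 74.9 CPM in w1118 glands. All PP libraries were thus above all RasV12 libraries, and 4 of the 8 (Hml, NimC1, Pxn and eater) were called higher in that comparison (8.7% of all genes were), with a median log2 fold change of 1.59. Against w1118, 1 hemocyte marker was called higher (15.7% of all genes) and 1 lower (11.3%) in the PP. Against lglRNAi;RasV12 glands 0 were called higher (8.21%) and 1 lower (6.24%). Sums of 5 muscle markers were 14.0 to 74.8 CPM in the PP, 36.4 to 45.0 CPM in lglRNAi;RasV12, 36.7 to 39.3 CPM in RasV12 and 57.5 to 73.8 CPM in w1118 glands. No marker was at 0 in all libraries of a group. Their part in the ng levels was not tested. In such bulk samples, more RNA per cell and more cells of a type cannot be told apart.

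Deposited file labels end in a number whose meaning is not given. The 3 w1118 libraries, RasV12 replicates 2 and 3 and PP replicate 1 had the same one. Replicates are numbered by the sample titles, which differ from the file labels for PP replicates 2 and 3 and not for PP replicate 1. Within the libraries of that same number, the PP against w1118 gave 1.65, 1.89, 1.23 and 2.80 on the log2 scale for ng1 to ng4. The PP against RasV12 gave 2.11, 1.84, 1.75 and 2.53. In these fits the single PP library is assumed to vary like the other groups.

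Across the 12 libraries, the new glue genes varied together, as described by Pearson correlations of log2(CPM + 1). r ranged between 0.90 (ng3 and ng4) and 0.99 (ng1 and ng3), and was 0.93 to 0.95 between each of them and CG14265. With Sgs4, r was between -0.70 (ng4) and -0.43 (ng3). The PP libraries set much of these values, since they form a cluster of their own in all 4 genes.

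Of 7697 genes with a mean of at least 1 CPM, CG43678 was the most like ng1 (r = 0.99) and ng3 (r = 0.98) over the 12 libraries. It averaged 29.3 CPM in the PP and 4.36 CPM in w1118 glands. ng1 was followed by IntS12, CG42807, Sytbeta and NUCB1, all with r of 0.97. CG18649 was the most like ng2 (r = 0.98), with 1318 CPM in the PP and 480 CPM in w1118 glands, and Sytbeta, CG43680 and CG10559 were also among the 5 most like it. After CG43678, ng3 was most like brm, Hibch, y and IntS12. CG13170 was the most like ng4 (r = 0.98), with 13.4 CPM in the PP and 0.453 CPM in w1118 glands, and CG31974, CG9630 and CG9399 were also among the 5 most like it.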

How the data were processed

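Poly(A) RNA of dissected SGs was sequenced by the study as paired-end reads with an unstranded kit. The authors pseudoaligned the reads with kallisto (v0.44.0) to dmel r6.19 transcripts and deposited estimated counts and TPM per transcript for each library. Their sleuth (v0.30.0) results were not used here. Of 30503 transcripts, 30279 were assigned to genes by the Ensembl annotation of dm6, and the other 224 held 0.197 to 0.359% of the counts. Estimated counts and TPM were summed per gene, and counts were rounded. Genes with too few counts (filterByExpr, minimum of 10) were removed, and 9012 genes of all 12 libraries were fitted together with TMM scaling in edgeR (v4.0.16, R v4.3.3), whose quasi-likelihood test was tested on simulated data. limma (v3.58.1) on log2(TPM + 0.1) and log2(TPM + 1), DESeq2 (v1.42.0), other scalings and filters and left-out replicates served as alternatives. Intervals cover counting and replicate error as fitted, and reads carry no molecular identifiers. The floor is a fixed 3 counts over the total counts of each library, without TMM scaling, and covers neither error. Same-numbered samples deviated together in RasV12 and w1118 (r = 0.24 to 0.36) and in lglRNAi;RasV12 and w1118 glands (r = 0.22 to 0.26). In lglRNAi;RasV12 and RasV12 glands r was -0.17 to 0.39, and between the PP and the other groups -0.24 to 0.09. The study's methods do not say that equal numbers mark paired samples, so a pairing was not established. Numbers were those of the sample titles, from which the file labels of PP replicates 2 and 3 differ. Values are given without a block for the number unless stated. The 4 genes and all lists (glue, ecdysone, transcription factor, L71 and marker genes) were chosen with earlier results of these data known. The text names the 4 genes, the genes within 20000 bases, the most abundant and oppositely called list genes, and, from the 5 genes most like each ng gene, those that are reported here.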

Additional observations from a re-analysis of the deposited data

How the results depend on the processing

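In the PP against w1118, lglRNAi;RasV12 and RasV12 glands, all 4 genes were called under every alternative run with more than 1 PP library. Leave-one-out log2 fold changes for ng1 were 1.55 to 1.91, 2.19 to 2.35 and 2.15 to 2.36. The PP against w1118 was larger on log2(TPM + 0.1), at 2.35, 2.52, 1.86 and 3.18 for ng1 to ng4, and with library size alone, at 2.14, 2.31, 1.68 and 3.02. With the replicate block, which pairs samples by the number in their titles (PP replicates 2 and 3 have other numbers in the file labels), the PP against w1118 gave 1.71, 1.91, 1.24 and 2.61 for ng1 to ng4, and the block changed no call of a new glue gene in any of the 6 comparisons. In entire glands the scaling turned directions. With library size alone, which moved the median of all genes against w1118 to 0.42 (RasV12), 0.43 (lglRNAi;RasV12) and 0.56 (PP), ng2 was at 0.32 (RasV12) and 0.33 (lglRNAi;RasV12) against w1118. On log2(TPM + 0.1), ng1, ng2 and ng3 were at 0.18, 0.60 and 0.12 in RasV12 and 0.21, 0.74 and 0.30 in lglRNAi;RasV12 glands against w1118, and on log2(TPM + 1) at 0.18, 0.60 and 0.12 and at 0.21, 0.74 and 0.30. With log2(TPM + 0.1), ng4 was called in lglRNAi;RasV12 against w1118 glands (1.08), so 1 gene was called there and not 0. For ng1 in lglRNAi;RasV12 against RasV12 glands, both TPM scales gave 0.025, the sum of ng1 and ng2 gave 0.00501, and libraries with 1 closing number, an alternative chosen after seeing the data, gave 0.18. The same kind of subset gave 0.0566 for ng2 in RasV12 against w1118. Leaving out 1 library gave -0.42 to 0.14 for ng2 and -0.0517 to 0.27 for ng4 in RasV12 against w1118, and -0.24 to 0.18 for ng2 in lglRNAi;RasV12 against w1118. In lglRNAi;RasV12 against RasV12 it gave -0.14 to 0.0715 for ng1, -0.13 to 0.35 for ng2 and -0.0163 to 0.28 for ng3. Except for ng4, none of these was called, and the cause was not tested. Over all genes, log2(TPM + 1) called 297 higher and 365 lower in the PP against lglRNAi;RasV12 (740 and 562 in edgeR), 354 and 286 against RasV12 (784 and 490), and 118 and 53 in lglRNAi;RasV12 against RasV12 (182 and 117). Libraries with 1 closing number gave 322 and 96 in the PP against RasV12, and 14 and 13 in lglRNAi;RasV12 against RasV12. log2(TPM + 0.1) gave 511 and 639 in the PP against lglRNAi;RasV12. Depth limits ng4, with 6 to 25 counts in each library of entire glands.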
